A study of Mus musculus with 16 samples.

Results

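This comparison asked what cyclosporine A changed in an unconventional mouse CD8 T cell clone that had been activated through its receptor. It sets 4 arrays of the clone activated with antibody to CD3 in the presence of the drug against 4 arrays of the clone activated with the antibody alone, and it was made over all 19938 genes that had a feature with a single gene symbol. The series holds 16 arrays in 4 groups, so these groups make up 8 of its 16 samples. The other 8 arrays are a conventional clone under the same pair of conditions and are used only where an effect of the drug is compared between the clones.

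All 8 samples carried the same treatment apart from the drug. They were cells of the unconventional clone, labelled a cyclosporine-resistant CD8 T cell, activated with an immobilized monoclonal antibody against CD3 in RPMI medium to which no recombinant cytokine was added. The drug group also received cyclosporine A at 1 ug per ml. Before activation the clones were kept in medium with several cytokines, interferons among them, per the labels' protocols. The conventional clone is labelled a cyclosporine-sensitive CD8 T cell. Each kind of cell is 1 clone, so a difference between the clones cannot be told apart from a difference between any pair of clones. The duration of activation is not given in the sources used here, and cells that were not stimulated were not analysed here. The labels do not say whether the 4 replicates of a group were separate cultures, so the p-values rest on a spread between samples that may be technical alone.

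Engagement of the T cell receptor raises calcium in the cell, which switches on the phosphatase calcineurin. Calcineurin removes phosphate from NFAT proteins, and these then enter the nucleus and, often together with AP-1, drive cytokine and chemokine genes. Cyclosporine A forms a complex with cyclophilin A (Ppia) that blocks calcineurin, and the drug is used clinically to suppress T cells. Signals from the receptor that run through protein kinase C, Ras and the kinases of the MAP kinase pathway, and through NF-kB, do not need calcineurin in the same way.

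The values are log2 expression values from whole-transcript arrays, so a change of 1 is 2-fold and a negative change is lower with the drug. Levels are given as mean ± SD over 4 arrays, and changes as the value with cyclosporine A minus the value without it, with the standard error (SE) from a linear model over all 16 arrays. A gene was called at a p-value from limma under 0.05 after Benjamini-Hochberg adjustment over the 19938 genes. Genes with functions in unrelated tissues, such as Alb and Gfap, gave a background level of 5.34, the highest group mean among the lower 26 of 29 such genes. A fall that ends at or below that level is a lower limit of the change in RNA, and so is a rise that starts there. The cells are a bulk sample, so fewer cells making a transcript and less transcript per cell cannot be told apart.

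The cells carried the defining markers of their label. The CD8 co-receptor chains Cd8a and Cd8b1 stood at 10.31 ± 0.07 and 10.24 ± 0.09 (SD, n = 4) with anti-CD3 alone, and the CD3 chains Cd3e, Cd3d and Cd3g at 10.77, 10.52 and 12.20. Cd4 (4.21) and Foxp3 (4.87) lay at background. Of 9 measured B cell markers 8 were at background in both groups, as were 15 of 17 macrophage and dendritic cell markers and 9 of 9 erythroid and granulocyte markers. The macrophage and dendritic cell markers above background were Cd68 and the integrin chain Itgax, which rose by 0.43 and 0.76. Without anti-CD3 replicate 1 the rise of Cd68 was 0.32 and was not called (adjusted p = 0.0589). The part of such cells in the results was not tested. The receptors Cd2 and Cd5, common on T cells, were listed at 4.06 and 4.83, at background.

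The 8 arrays were alike in distribution, with medians between 5.36 and 5.49 and values between 2.08 and 14.52. Arrays correlated over genes at 0.9958 to 0.9978 within the anti-CD3 group, at 0.9974 to 0.9977 within the drug group and at 0.9849 to 0.9877 between the groups. The median SD of a gene was 0.112 without and 0.095 with the drug. No pair of arrays was identical. Anti-CD3 replicate 1 and, with the drug, replicates 1 and 3 stood apart for some genes. The part of any array in the results was tested only by leaving it out.

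Cyclosporine A changed the expression of a large share of genes by a small amount and of a small share by a large amount. Of 19938 genes, 4970 were called (24.9%), 2518 higher with the drug (12.6%) and 2452 lower (12.3%). With the arrays centred on their medians the calls were 1842 higher and 2751 lower, so that 40.1% of calls were rises in place of 50.7%. A rise of at least 2-fold was called for 245 genes (1.23%) and a fall of that size for 213 (1.07%), an order that turned to 219 rises and 247 falls with median centring. The 4 and 4 arrays did not overlap for 5427 genes (27.2%). Large falls were more common than large rises: 58 genes fell and 35 rose at least 4-fold, 24 fell and 5 rose at least 8-fold, and 9 fell and 0 rose at least 16-fold. Of the 213 falls, 49 ended at background with the drug, and 49 of the 245 rises started there.

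The share of genes called varied with the level of expression. Both groups were at background for 9529 genes. Of the other 10409, 4672 were called (44.9%), and 2149 (20.6%) had a 95% interval of the change that lay wholly within 1.2-fold in either direction. Among genes with a mean level without the drug between 6 and 8, 25.7% were called higher and 17.8% lower. Among genes between 10 and 12 the order was turned, with 17.2% higher and 33.4% lower. Above 12, 10.8% were called higher and 24.0% lower, and the changes of at least 2-fold there were 8 falls and 0 rises. The level without the drug is also one side of the change, so falls tend to sort towards higher levels and rises towards lower ones. The turn of the order is therefore partly built in, and how far was not tested.

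**Figure D1:**
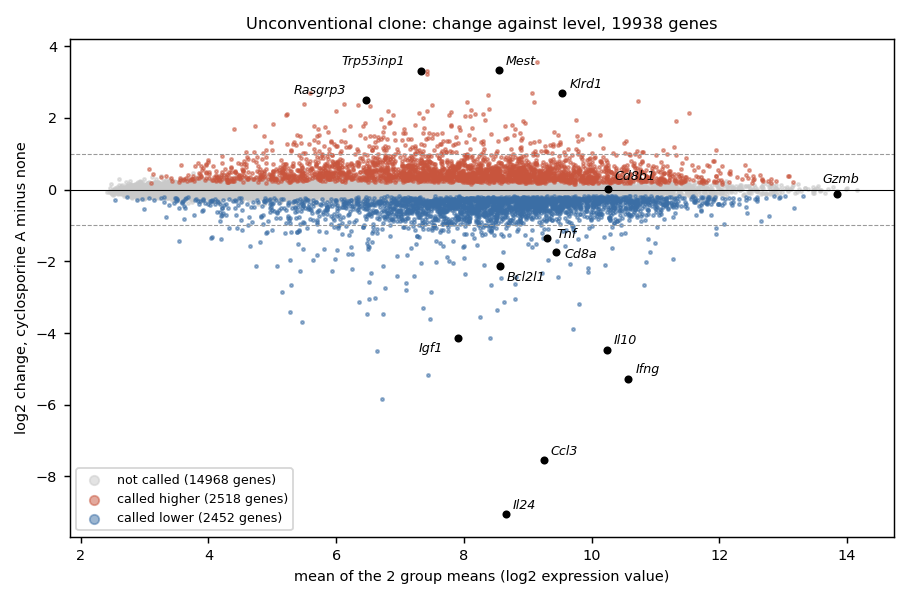
Log2 change with cyclosporine A (vertical axis, cyclosporine A minus none) against the mean of both group means (horizontal axis, log2 expression value) in the unconventional clone, 1 point per gene, with called genes in colour, selected genes named and dashed lines at a 2-fold change. The falls reach -9.05 (Il24), while the largest rise is 3.56.

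The 12 largest falls were led by secreted products of activated T cells. Il24, an IL-10 family cytokine, read 12.96, 13.20, 13.22 and 13.34 on the 4 anti-CD3 arrays and 3.97, 4.02, 4.33 and 4.22 with the drug, a change of -9.05 (SE 0.11, adjusted p = 5.1e-21) that ended at background. Ccl3, a chemokine that attracts inflammatory cells, read 12.77, 13.17, 13.18 and 12.97 without and 4.53, 5.87, 5.57 and 5.93 with the drug (-7.55, SE 0.21, adjusted p = 1.9e-15). The drug replicate 1 was the lowest of its group for Ccl3, and all 4 drug arrays lay far under the anti-CD3 arrays for both genes. Ifng, the signature cytokine of type 1 responses, read 13.09, 13.21, 13.23 and 13.32 and then 7.47, 8.05, 8.03 and 8.19 (-5.28, SE 0.11). Its level with the drug, 7.93 ± 0.31 (SD, n = 4), stayed above background. Xcl1, the chemokine that recruits cross-presenting dendritic cells, fell from 10.04 ± 0.51 to 4.85 ± 0.12 (-5.18), and the regulatory cytokine Il10 from 12.47 ± 0.17 to 8.0 ± 0.35 (-4.47). Of these, Xcl1 ended at background and Il10 did not.

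Other genes among the 12 largest falls are less often linked to T cells. Akr1c18, which inactivates progesterone, read 8.65, 10.01, 10.09 and 9.80 without and 3.37, 3.66, 3.93 and 4.21 with the drug (-5.85, SE 0.23), with anti-CD3 replicate 1 more than 1 unit under its group. The secreted glycoprotein Olfm4 fell by 4.49 to background, and the membrane protein Tm4sf1 fell by 4.14. The growth factor Igf1 read 9.77, 10.01, 10.05 and 10.05 and 5.77, 5.72, 6.0 and 5.87 (-4.13, SE 0.08, adjusted p = 2.4e-17). Tnfrsf11b, or osteoprotegerin, a decoy receptor for the ligand of RANK, fell from 11.64 ± 0.10 to 7.77 ± 0.12 (-3.87). The isomerase gene Idi2 changed by -3.69, and the small membrane protein gene Pdzk1ip1 by -3.60. None of these overlapped between the groups, which the rule for naming them required.

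The 12 largest rises had no cytokine among them. Arhgap42, a GTPase-activating protein, read 7.59, 7.42, 7.15 and 7.28 without and 11.03, 10.97, 10.72 and 10.96 with the drug (3.56, SE 0.09, adjusted p = 9.4e-16), and a dimmer second feature of the gene changed by 0.43. The imprinted gene Mest rose from 6.88 ± 0.32 to 10.21 ± 0.20 (SD, n = 4; 3.34, SE 0.13). Trp53inp1, a p53-inducible gene that promotes autophagy and restrains growth, read 5.60, 5.53, 5.67 and 5.90 and then 9.15, 8.77, 8.78 and 9.29 (3.32, SE 0.12). The collagen chain Col6a3 rose by 3.31 and the Kelch family gene Klhl30 by 3.22, each from near background.

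The remaining rises included several receptors and regulators. Vipr2, a receptor for vasoactive intestinal peptide, rose by 2.71 from background. The arginine deiminase Padi2 rose by 2.70, and Klrd1 (CD94), the partner chain of NKG2 receptors, rose from 8.19 ± 0.14 to 10.88 ± 0.11 (2.69, SE 0.14, with anti-CD3 replicate 1 the highest of its group at 8.39). Vsir (VISTA), an inhibitory receptor linked to quiescence of T cells, rose from 7.05 ± 0.28 to 9.69 ± 0.05 (2.64). Rasgrp3, an exchange factor for Ras, rose by 2.50 from background, with its drug arrays spread between 7.21 and 8.14. Anxa1, a mediator of glucocorticoid action, rose by 2.47, and Cdkn2b, an inhibitor of Cdk4 and Cdk6, by 2.46.

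**Figure D2:**
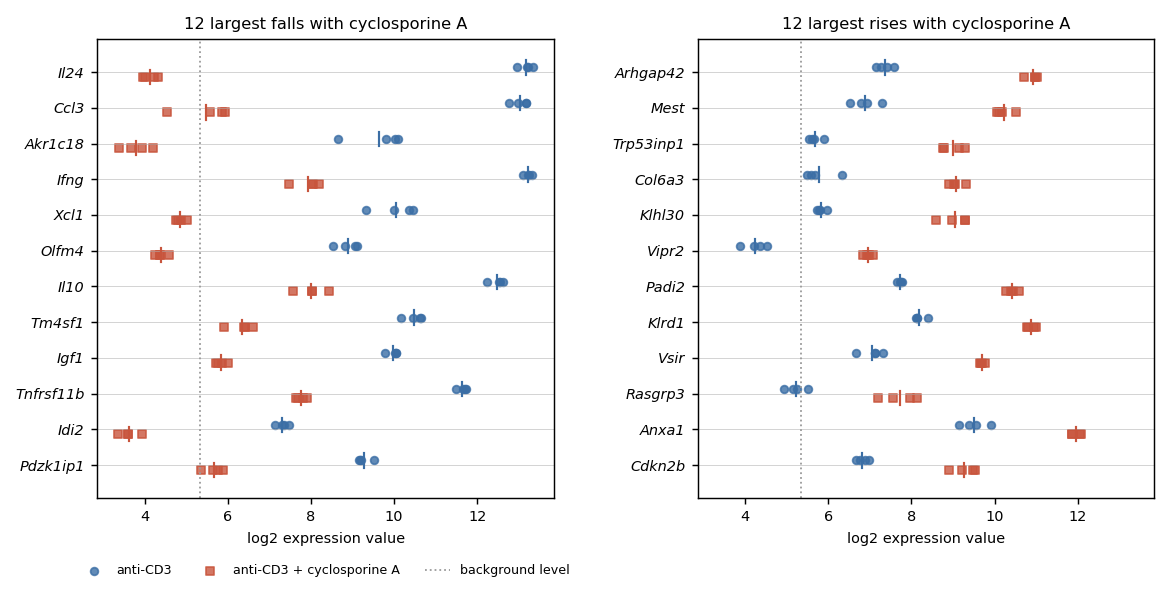
Log2 expression value (horizontal axis) on each of the 4 anti-CD3 arrays (circles) and 4 arrays with cyclosporine A (squares) for the 12 largest falls (left) and 12 largest rises (right), with group means as bars and the background level of 5.34 as a dotted line. Il24 goes from between 12.96 and 13.34 to between 3.97 and 4.33, and Arhgap42 from between 7.15 and 7.59 to between 10.72 and 11.03.

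Promoter windows were searched for the letters that NFAT, AP-1 and cell cycle factors are known to prefer. The windows below hold the 250 bases before the RefSeq start site on assembly GRCm38.p6, 5′ to 3′ on the strand of the gene, and were chosen because they hold the motif, to put a chemokine, a cytokine and a growth factor that fell far beside a gene of mitosis and one of DNA replication. Capitals mark the NFAT core GGAAA on either strand (TTTCC on the other) in Ccl3, Ifng and Igf1, the element TTTGAA of cell cycle genes, known as CHR, in Espl1, and the E2F core TTCGCGC on either strand in Orc1.
Ccl3, chr11:83649379-83649628, minus strand: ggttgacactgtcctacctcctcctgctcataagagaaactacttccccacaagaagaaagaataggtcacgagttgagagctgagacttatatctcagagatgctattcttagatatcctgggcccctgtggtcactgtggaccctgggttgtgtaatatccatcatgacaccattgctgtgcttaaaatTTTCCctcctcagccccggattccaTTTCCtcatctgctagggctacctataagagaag
Ifng, chr10:118440796-118441045, plus strand: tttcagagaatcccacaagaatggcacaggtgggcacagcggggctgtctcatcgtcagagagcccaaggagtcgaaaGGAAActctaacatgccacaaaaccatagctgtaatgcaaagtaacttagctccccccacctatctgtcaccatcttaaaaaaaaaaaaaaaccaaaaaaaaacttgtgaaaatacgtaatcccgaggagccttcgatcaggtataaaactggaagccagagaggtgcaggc
Igf1, chr10:87860861-87861110, plus strand: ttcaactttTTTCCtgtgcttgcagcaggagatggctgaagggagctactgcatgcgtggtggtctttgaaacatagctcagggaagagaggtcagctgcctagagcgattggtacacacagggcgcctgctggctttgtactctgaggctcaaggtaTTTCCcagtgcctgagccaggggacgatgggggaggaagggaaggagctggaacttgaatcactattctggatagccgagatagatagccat
Espl1, chr15:102296043-102296292, plus strand: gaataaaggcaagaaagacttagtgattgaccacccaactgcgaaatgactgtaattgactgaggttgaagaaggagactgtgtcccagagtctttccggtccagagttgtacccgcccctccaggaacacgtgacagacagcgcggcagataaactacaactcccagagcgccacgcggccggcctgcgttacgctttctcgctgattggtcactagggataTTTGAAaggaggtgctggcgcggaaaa
Orc1, chr4:108579204-108579453, plus strand: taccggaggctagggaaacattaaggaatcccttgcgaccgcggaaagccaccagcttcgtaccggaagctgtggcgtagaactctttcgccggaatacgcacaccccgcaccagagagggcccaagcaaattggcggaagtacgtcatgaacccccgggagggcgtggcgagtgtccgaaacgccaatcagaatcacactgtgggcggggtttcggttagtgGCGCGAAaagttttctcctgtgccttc
The element in Espl1 and the E2F core in Orc1 both start 27 bases before the start site. Other windows lacked these letters, the NFAT core in Idi2, TTTGAA in Melk, Anln and Ttk, and the E2F core in Mcm10, Cdc45 and Rrm2.

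The NFAT core is short and common. At least 1 GGAAA on either strand was found in 54.9% of 19177 promoter windows of the genes tested, in 65.2% of 221 windows of genes that fell at least 2-fold and in 55.6% of 275 windows of genes that rose at least 2-fold. For genes that fell at least 4-fold it was 69.6% of 56 windows, for effector cytokines 83.3% of 18 and for chemokines 83.3% of 12. For DNA replication genes it was 71.0% of 31 windows and for mitosis genes 46.2% of 26, so a high share was not particular to the steep falls. The AP-1 letters TGANTCA were in 6.04% of all windows, in 8.14% of those of 2-fold falls and in 22.2% of the cytokine windows. The E2F core TTCGCGC was in 1.8% of all windows and in 19.4% of 31 windows of DNA replication genes. TTTGAA was in 13.4% of all windows and in 30.8% of 26 windows of mitosis genes. It was also in 27.8% of the cytokine windows, 23.2% of those of 4-fold falls and 9.68% of those of DNA replication genes. These shares are descriptions with no test, both strands were searched, a match is not a bound site, and none of these motifs contains another. A gene can have more than 1 window, and the 2-fold falls with a window were 170 of 213 genes.

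Effector cytokines had the lowest median change of the pathway lists, except among brighter genes alone, where chemokines were lower (-3.21 against -2.84). Of 19 measured members, 12 fell, 10 of them at least 2-fold, and 1 rose, with a median change of -1.34 against 0.02 over all genes. The gene that rose was the growth factor Csf1, at background in both groups (0.49), whose call was lost without anti-CD3 replicate 1, 2 or 3 or drug replicate 3 or 4 (adjusted p 0.06064 to 0.1347) and with each other normalization. The share called lower here was 63.2%, against 12.3% of all genes, and 6 members were at background in both groups. Counts of the lists that follow stand against 12.6% of all genes called higher and 12.3% lower, or 44.9% called either way among genes above background. Il17a, the signature cytokine of type 17 cells, read 8.18, 8.66, 8.65 and 8.37 without the drug and 5.16, 4.84, 4.84 and 5.12 with it. Its relative Il17f read 7.86, 7.98, 8.07 and 7.79 without and 5.20, 4.65, 4.64 and 4.71 with the drug. Both ended at background, with changes of -3.47 and -3.12 (SE 0.12 and 0.12). Il3, a growth factor for myeloid precursors, fell from 6.98 ± 0.92 to 3.57 ± 0.11 (-3.40), with a wide spread without the drug. The T cell growth factor Il2 was low already, at 5.59, 6.19, 6.87 and 6.40 without and 4.26, 4.21, 4.43 and 4.28 with the drug (-1.97, adjusted p = 5.4e-08).

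Further cytokines covered a wide range. The inflammatory cytokine Tnf read 9.55, 10.12, 10.12 and 10.12 without and 8.45, 8.76, 8.68 and 8.65 with the drug (-1.34, SE 0.10), so that anti-CD3 replicate 1 lay below the other 3 and still above every drug array. The alarmin Il1a changed by -2.84 and lymphotoxin Lta by -2.75, both to near background. Il9, a cytokine of mast cell growth, changed by -0.93 and Csf2 (GM-CSF) by -0.71 from a level at background. The type 2 cytokines Il4, Il5 and Il13 stood at 3.67, 3.61 and 5.55 without the drug and were not called. Il13 was called in a fit of the 8 arrays alone (-0.37, adjusted p = 0.006026). Tgfb1, an immunosuppressive cytokine, was at 11.50 and 11.61 and was not called (95% interval of the change -0.02 to 0.23).

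Chemokines included several genes that fell steeply. Of 16 measured, 7 fell, 6 at least 2-fold, and 0 rose by limma (0 at an unadjusted p under 0.05), with a median of -0.20. Since 8 members were at background in both groups, the median among brighter genes alone was -3.21. Beside Ccl3 and Xcl1, the neutrophil attractants Cxcl2 and Cxcl3 changed by -3.29 and -3.35, Ccl1 by -2.60 and Ccl9 by -0.95. Ccl4, a close relative of Ccl3, read 9.80, 10.25, 10.35 and 10.36 without and 6.31, 7.15, 7.33 and 7.42 with the drug (-3.14), with drug replicate 1 the lowest. Ccl5 (RANTES), made by memory and effector CD8 T cells, was not among them. It read 11.46, 11.58, 11.49 and 11.60 without and 11.94, 11.88, 11.90 and 11.87 with the drug (0.36, 95% interval -0.03 to 0.75, adjusted p = 0.192), and its arrays did not overlap. In a fit of the 8 arrays of this clone alone Ccl5 was called higher (adjusted p = 0.0006705).

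Among 19 TNF superfamily ligands and receptors, 6 fell and 2 rose, with a median of -0.06. Tnfrsf18 (GITR) changed by -1.44, the ligand Tnfsf14 (LIGHT) by -1.17, Tnfrsf4 (OX40) by -0.81 and Fasl, the death ligand of killer cells, by -0.60. The death ligand Tnfsf10 (TRAIL) rose from background, 4.18 ± 0.18, to 6.28 ± 0.13 (2.10).

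Cytotoxic granule genes included both falls and genes with little change. Of 20 measured genes 6 fell, 2 of them at least 2-fold, and 3 rose, with a median of -0.06. Gzmb, the main granzyme of killer cells, read 13.94, 13.85, 13.95 and 13.87 without and 13.83, 13.81, 13.74 and 13.79 with the drug, and its 95% interval of the change was -0.25 to 0.03 (-0.11, adjusted p = 0.29). Gzma was at 13.32 and 13.36, and Gzmf at 13.59 and 13.59, with neither called. The pore former Prf1 did fall, from 12.43, 12.64, 12.57 and 12.56 to 11.36, 11.58, 11.62 and 11.82 (-0.96, SE 0.08). Serpinb9, which shields the killer cell from its own granzyme B, changed by -1.24 and the granule protein Nkg7 by -1.08. Nkg7 was low on anti-CD3 replicate 1, at 12.09 against 12.61 to 12.62 on the others. Small rises were called for the cathepsin Ctsw (0.54, with replicate 1 the lowest of both groups at 9.30 and 10.08), Gzme (0.41) and the priming factor Unc13d (0.32). The granzymes of this cluster are close copies of each other, and how far their features share signal was not tested.

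Receptors on the cell surface moved in both directions. Of 21 inhibitory and co-stimulatory receptors, 10 fell and 4 rose, 3 each way at least 2-fold, with a median of -0.22. The inhibitory ligand Cd200 fell from 9.82 ± 0.16 to 7.35 ± 0.24 (-2.47, SE 0.14). Tigit, another inhibitory receptor, fell from 11.03 ± 0.04 to 8.85 ± 0.11 (-2.17), and Ctla4 read 8.68, 8.43, 8.89 and 9.03 and 6.99, 6.39, 6.78 and 6.91 (-1.99). The activation markers Il2ra (CD25) and Cd69 changed by -0.88 and -0.81, the co-stimulator Icos by -0.60 and Pdcd1 (PD-1) by -0.58. Against these, Cd28, the main co-stimulatory receptor, rose from background at 5.33 ± 0.13 to 7.10 ± 0.25 (1.77), the adhesion receptor Cd44 rose by 1.73, and Vsir rose as given above.

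NK cell receptor genes rose more often than they fell, 6 against 1 of 16, with a median of 0.14. Klrd1 led them, and its partners Klrc2 and Klrc3 rose by 0.47 and 0.58. Klrc1, the inhibitory partner, was at 12.09 and 12.21 and was not called. The marker of terminal effector cells Klrg1 rose by 0.92 and Klra5 by 0.77, while Klra3 changed by -1.36 from background. Members of the Klra and Klrc families are near-identical in parts, so which member gave the signal is uncertain.

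Of the chains of the CD8 co-receptor, Cd8a fell and Cd8b1 was not called. Cd8a read 10.25, 10.27, 10.40 and 10.33 on the anti-CD3 arrays and 8.73, 8.61, 8.52 and 8.39 with the drug, a fall of 1.75 (SE 0.08, adjusted p = 3.6e-12). Cd8b1 read 10.12, 10.23, 10.32 and 10.28 and 10.43, 10.27, 10.13 and 10.23, and its 95% interval was -0.12 to 0.18. The CD3 chains rose slightly, Cd3g by 0.54 and Cd3d by 0.40, with arrays that did not overlap. Cd3e (0.32, adjusted p = 0.0257) did overlap, since anti-CD3 replicate 1 stood at 11.21 against 10.57 to 10.72 for the others. Its call was lost when anti-CD3 replicate 2, 3 or 4 or drug replicate 2 was left out (adjusted p 0.06495 to 0.1055) and with median centring.

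Over 33 receptor signalling genes, 15 rose and 6 fell, with a median of 0.19. Large rises were in Rasgrp3, the adaptor Grap2 (GADS) from 6.32 ± 0.44 to 8.13 ± 0.07 (1.81) and Sla2 (1.36), which dampens receptor signalling. Zap70, the kinase that binds the CD3 chains, rose by 0.68, the phosphatase Ptpn22 by 0.88, the thymic adaptor Themis by 0.88 and the ubiquitin ligase Cblb by 0.59. Falls were called for the adaptor Lcp2 (SLP-76; -1.18), for Sla (-0.80) and for the adaptor Sh2d2a (-0.77). Lat, the scaffold of the pathway, was at 11.90 and 11.83 and was not called.

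In the drug's own pathway some genes changed and others did not pass the test. Ppia, which the drug binds, read 13.67, 13.71, 13.73 and 13.63 without and 13.72, 13.68, 13.72 and 13.70 with the drug, with a 95% interval of -0.10 to 0.14. The calcineurin catalytic chain Ppp3ca rose from 9.54, 9.32, 9.28 and 9.26 to 10.10, 10.03, 10.24 and 9.92 (0.73, SE 0.09, adjusted p = 3.7e-06), whereas its sister Ppp3cb (0.00) and the regulatory chain Ppp3r1 (-0.04) were not called. Rcan1, a feedback inhibitor of calcineurin and a known NFAT target, had both group means at background, with arrays at 5.24, 5.21, 5.03 and 5.20 and 5.36, 5.21, 5.43 and 5.19 (0.12, adjusted p = 0.449). Nfatc1 changed by -0.40 and Nfat5 by -0.89, and Nfatc2 (-0.04) was not called. The store-operated channel subunit Orai2 rose by 1.06 (drug replicate 1 highest, at 7.67) and the calcium release channel Itpr3 by 1.05. In all, 6 of 28 genes rose (21.4%) and 7 fell (25.0%), together near the 44.9% called among all genes above background. The median was 0.00, and with median centring 3 rose.

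Immediate early genes and their feedback regulators moved unevenly. Of 18 EGR, NR4A, TOX and anergy genes, 6 fell and 1 rose, with a median of 0.05. Nr4a3, an orphan nuclear receptor induced by receptor signals, read 8.69, 8.76, 8.78 and 8.76 without and 7.21, 7.70, 7.54 and 7.54 with the drug (-1.25, SE 0.11). The changes in Egr2 and Nr4a1 were small, at -0.45 and -0.30, and Egr1 (-0.12) and Egr3 (0.08) were not called. Rnf128 (GRAIL), a ubiquitin ligase of anergy, rose by 0.70. Ndrg1 (-0.64, adjusted p = 0.0384) lost its call without any 1 of anti-CD3 replicates 2, 3 and 4 or drug replicates 2 and 3 (adjusted p 0.05179 to 0.1602).

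Of 27 AP-1 and MAP kinase feedback genes, 12 fell and 5 rose, with a median of 0.06. The stress factor Atf3 read 8.41, 8.68, 8.42 and 8.77 without and 6.85, 6.63, 6.43 and 6.33 with the drug (-2.01), Maff changed by -1.20 and Batf3 by -0.78. Fos (0.06) and Jun (0.14) were not called, although Jun was without anti-CD3 replicate 1 (0.21, adjusted p = 0.03127). Junb changed by -0.44, and Fosb rose by 1.21. The phosphatases of MAP kinases split, with Dusp1 rising by 1.31 and Dusp6 by 0.38 while Dusp2 changed by -0.63. The Sprouty-related genes split too, with Spred1 at -0.89 and Spred2 at 1.26.

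NF-kB genes showed falls of moderate size. Of 22 members 14 fell and 3 rose, none by 2-fold, with a median of -0.33. The subunits Nfkb2 and Relb changed by -0.84 and -0.70, the co-activator Bcl3 by -0.98 (drug replicate 1 lowest, at 6.86) and the deubiquitinase Tnfaip3 (A20) by -0.63. Rela itself was at 8.57 and 8.55 and was not called. Nfkbiz, an atypical inhibitor, rose by 0.56.

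Transcription factors of T cell fate included 10 rises and 7 falls among 27, with a median of 0.11. Ahr, the aryl hydrocarbon receptor, read 9.06, 8.65, 8.56 and 8.60 without and 10.37, 10.20, 10.28 and 10.12 with the drug (1.53, SE 0.11). Bcl6, a transcriptional repressor that favours follicular helper and memory fates, rose from background at 4.81 ± 0.17 to 6.10 ± 0.14 (1.29). Prdm1 (Blimp-1), its counterpart in effector cells, rose as well, by 0.78, as did Ikzf3 (0.72), Runx1 (0.72) and the type 1 factor Tbx21 (T-bet; 0.51). Irf4 and Irf8 changed by -1.05 and -0.92 (Irf4 was lowest on anti-CD3 replicate 1, at 11.35 against 11.60 to 11.63), Foxp1 by -1.26 and Gata3 by -0.47. Eomes was at background in both groups.

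Of 20 quiescence genes 7 rose and 4 fell, with a median of 0.19. The antiproliferative genes Btg2 and Tob1 rose by 1.86 and 1.14. Btg2 read 5.53, 5.41, 5.77 and 5.40 without and 7.45, 7.50, 7.19 and 7.41 with the drug. The PI3 kinase inhibitor Pik3ip1 rose by 1.35, the glucose-sensing Txnip by 0.74 and Cdkn1b (p27), a brake on Cdk2, by 0.62. The receptors of the naive state fell, with Ccr7 at -1.57 and Il7r at -0.68. The factors Klf2 (0.05) and Foxo1 (0.01) were not called, and S1pr1 lay at background.

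Homing receptors and integrins rose in 10 and fell in 1 of 24 cases, with a median of 0.16. The integrin chain Itgb3 read 6.44, 6.51, 6.32 and 6.18 without and 8.41, 8.30, 8.43 and 8.32 with the drug (2.01, SE 0.08). Itgae (CD103) and Itgb7, which together bind E-cadherin, rose by 1.24 and 1.53. Their ligand Cdh1 (E-cadherin), on the list of epithelial markers, rose from 7.12 ± 0.61 to 9.22 ± 0.33 (2.10). The receptor Ccr1 rose by 1.73, and Ccr4, the receptor for Ccl17 and Ccl22, was the gene that fell, from 12.05, 12.44, 12.23 and 12.22 to 10.17, 10.39, 10.37 and 10.31 (-1.92). Of the epithelial, fibroblast and endothelial markers 2 of 18 rose and 3 fell, and Epcam, Krt14, Pdgfra and Cdh5 lay at background.

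Cytokine receptors and their feedback inhibitors held both falls and rises. Of 23 receptor chains 7 fell, 5 at least 2-fold, and 5 rose, with a median of 0.02. Il18r1 changed by -1.44, Il4ra by -1.39 (drug replicate 1 lowest, at 8.95), Il21r by -1.20, Il10ra by -1.18 and Il10rb by -1.07. Il17ra (0.86), Tgfbr2 (0.84) and Ifngr1 (0.58) rose, and Il2rb, the shared chain for IL-2 and IL-15, was at 12.30 and 12.36. Of 20 SOCS, CISH, PIM and STAT genes 8 fell and 3 rose, with a median of -0.18. Cish, a target of Stat5, read 10.60, 10.81, 10.68 and 10.70 without and 8.51, 8.65, 8.55 and 8.80 with the drug (-2.07, SE 0.07). Socs1 changed by -1.06 and the kinases Pim1 and Pim3 by -1.0 and -0.99.

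Several survival genes of the BCL2 family fell. Bcl2l1 (BCL-XL) read 9.55, 9.70, 9.64 and 9.65 without and 7.36, 7.27, 7.60 and 7.75 with the drug (-2.14, SE 0.10, adjusted p = 4.1e-12), and Bcl2 read 8.76, 8.58, 8.89 and 9.20 and 6.78, 6.93, 6.79 and 6.73 (-2.05). The caspase inhibitor Cflar changed by -0.86 and Mcl1 by -0.36. Among genes that promote death, Casp9 rose by 0.95, Bmf by 0.71 and Bad by 0.66, and Bcl2l11 (BIM) was at background. Over 18 genes 6 rose and 6 fell, with a median of 0.04.

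Of 24 p53 target and GADD45 genes, 6 rose (25.0%) and 7 fell (29.2%), together near the 44.9% called among all genes above background, with a median of -0.03. All 3 GADD45 stress genes fell, Gadd45g by 2.63, Gadd45a by 1.58 and Gadd45b by 1.25. Gadd45g read 9.53, 10.14, 10.23 and 10.57 without and 7.42, 7.50, 7.65 and 7.39 with the drug. Trp53inp1 led the rises, followed by Sesn3 (1.52) and Ddit4 (1.35), both of which restrain mTORC1. Mdm2, a standard p53 target, was at 9.30 and 9.28 (95% interval of the change -0.17 to 0.15).

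Cell cycle genes fell broadly and by moderate amounts. All 31 measured DNA replication genes fell, 2 of them at least 2-fold, with a median of -0.58. Orc1, a subunit of the complex that marks origins, read 8.34, 8.20, 8.11 and 8.23 without and 7.10, 6.73, 7.16 and 7.17 with the drug (-1.18, SE 0.13). Mcm10 and Cdc45, which act when the helicase is loaded and fired, changed by -1.09 and -0.85, and the ribonucleotide reductase subunit Rrm2 by -0.82. The helicase subunits Mcm2 to Mcm7 changed by between -0.52 and -0.33, and the clamp Pcna by -0.37.

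Of 30 mitosis and kinetochore genes 25 fell, 4 at least 2-fold, and 0 rose (0 at an unadjusted p under 0.05 in limma), with a median of -0.73. The kinase Melk changed by -1.13, the cytokinesis scaffold Anln by -1.10 and the checkpoint kinase Ttk by -1.03. Espl1, the separase that cuts cohesin, read 8.39, 8.19, 8.26 and 8.24 without and 6.89, 7.15, 7.67 and 7.25 with the drug (-1.03). Prc1 (0.13) and Cenpa (0.17) were not called. Mki67, the gene of the Ki-67 antigen, read 9.80, 9.18, 9.64 and 9.30 without and 8.57, 8.91, 9.66 and 8.99 with the drug and was not called (-0.44, adjusted p = 0.0685).

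Single arrays bear on this group. Drug replicate 3 lay closer to the anti-CD3 arrays than the other drug arrays did, with a mean of the mitosis list of 8.57 against 7.95, 8.06 and 8.21, and of the replication list of 9.77 against 9.43 to 9.61. Without it 28 mitosis genes fell, with a median of -0.86, and 31 replication genes, with a median of -0.64. Mki67 was then called at -0.65 (adjusted p = 0.00147). Mki67 was also called without anti-CD3 replicate 2, with median centring and among brighter genes alone (adjusted p 0.03529 to 0.04423). Anti-CD3 replicate 3 was itself the highest of its group for the mitosis list, at 9.03 against 8.80 to 8.83, and stayed in the fit without drug replicate 3. With anti-CD3 replicate 3 left out instead, 24 mitosis genes fell.

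Cyclins, their kinases and E2F factors followed, with 17 of 29 lower and 5 higher and a median of -0.50. E2f8 changed by -1.19, Cdk1 by -1.02, Ccne2 by -0.89, Ccna2 by -0.82 and Foxm1, a driver of mitotic genes, by -0.81. Inhibitors rose, with Cdkn2a at 0.65, Cdkn1b at 0.62 and Cdkn2c at 0.49, and so did the pocket protein Rb1 (0.35). With median centring 3 genes of this list rose.

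Growth and metabolism genes changed by modest amounts. Of 29 Myc and ribosome biogenesis genes 16 fell and 3 rose, with a median of -0.24. Myc read 12.15, 12.24, 12.14 and 12.17 without and 11.77, 11.71, 11.76 and 11.88 with the drug (-0.39, SE 0.06). Its antagonists Mxd4 and Mxd1 rose by 2.08 and 1.18, and the pre-rRNA factors Rrp9 and Rrp12 changed by -0.84 and -0.78. Of 24 sterol and fatty acid synthesis genes 5 rose and 5 fell (20.8% each), together near the 44.9% called among all genes above background, with a median of -0.08. Acss2, which makes acetyl-CoA from acetate, rose by 1.23 and Hmgcs1, which read low on anti-CD3 replicate 1 (9.71 against 10.07 to 10.15), by 1.04, whereas Fasn, Sqle and Cyp51 changed by -0.69, -0.65 and -0.56.

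Of 25 glycolysis and hypoxia genes 4 fell and 2 rose, with a median of -0.07. None of them was at background in both groups, and the share called was below the 44.9% called among all genes above background. Hk2, the inducible hexokinase, changed by -0.93 and Hif1a by -0.88, and the mitophagy receptor Bnip3l rose by 1.0. The mean of the list stood at 10.65 on anti-CD3 replicate 4 against 10.39 to 10.43 on the others. Bnip3 (-0.68, adjusted p = 0.15) was not called, but was in a fit of the 8 arrays alone (adjusted p = 0.02387). Of 28 respiratory chain genes 14 rose and 1 fell, with a median of 0.21 and no change of 2-fold. Ndufa1 rose by 0.39, Sdhb by 0.36 and Uqcrc1 by 0.34, and the fall was in cytochrome c (Cycs; -0.25), whose call was lost without anti-CD3 replicate 1 or 3 or drug replicate 2 (adjusted p 0.05823 to 0.09755). That count is sensitive to scaling, since 6 genes rose with median centring.

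Stress response genes of the endoplasmic reticulum and of amino acid supply fell in 11 and rose in 2 of 31 cases, with a median of -0.15. The folate enzyme Mthfd2 changed by -0.86 and the amino acid transporters Slc7a1 and Slc7a5 by -0.83 and -0.76, while Herpud1 rose by 0.50. Ddit3 (CHOP) was at 6.43 and 6.33 and was not called. Of 26 interferon-stimulated and class I presentation genes 13 rose and 2 fell, with a median of 0.21. Irgm1, an interferon-inducible GTPase, read 6.68, 7.15, 7.32 and 6.81 without and 8.22, 8.27, 8.31 and 8.28 with the drug (1.28), Gbp3 rose by 0.75, Irf1 by 0.66 and the class I chaperone Tapbp by 0.66. Ifit2, Ifit3 and Usp18, which respond to type I interferon, were at background.

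Of 8 GIMAP GTPases, which support lymphocyte survival, 5 fell and 0 rose (0 at an unadjusted p under 0.05 in limma), led by Gimap5 (-0.98). Of 24 lysosome and autophagy genes 10 rose and 0 fell (1 at an unadjusted p under 0.05 in limma), with a median of 0.23. The protease Ctsd read 11.31, 11.41, 11.36 and 11.50 without and 12.46, 12.46, 12.58 and 12.47 with the drug (1.10), and the autophagy genes Atg7, Map1lc3b and Sqstm1 rose by 0.85, 0.70 and 0.62. Of 27 matrix and growth factor genes 5 rose and 6 fell, with falls in Hbegf from 10.38 ± 0.32 to 8.06 ± 0.05 (-2.32) and in the proteoglycan Lum (-2.14). Of 9 MHC class II genes and partners 3 fell and 1 rose, with H2-Ab1 at -0.84 and H2-Aa at -0.69.

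Reference genes and markers of other cells served as a yardstick. Of 12 reference genes 3 rose and 2 fell, each by less than 1.5-fold, with a median of 0.04. Actb was at 13.96 and 13.99 and Rplp0 at 13.86 and 13.82. Of 29 genes of unrelated tissues 2 were called higher, Ins2 by 0.22 and Pou5f1 by 0.29, and 0 lower (1 at an unadjusted p under 0.05 in limma). Both calls were lost without anti-CD3 replicate 2 or 3 or drug replicate 1 (adjusted p 0.05777 to 0.1138), and each without other single arrays.

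**Figure D3:**
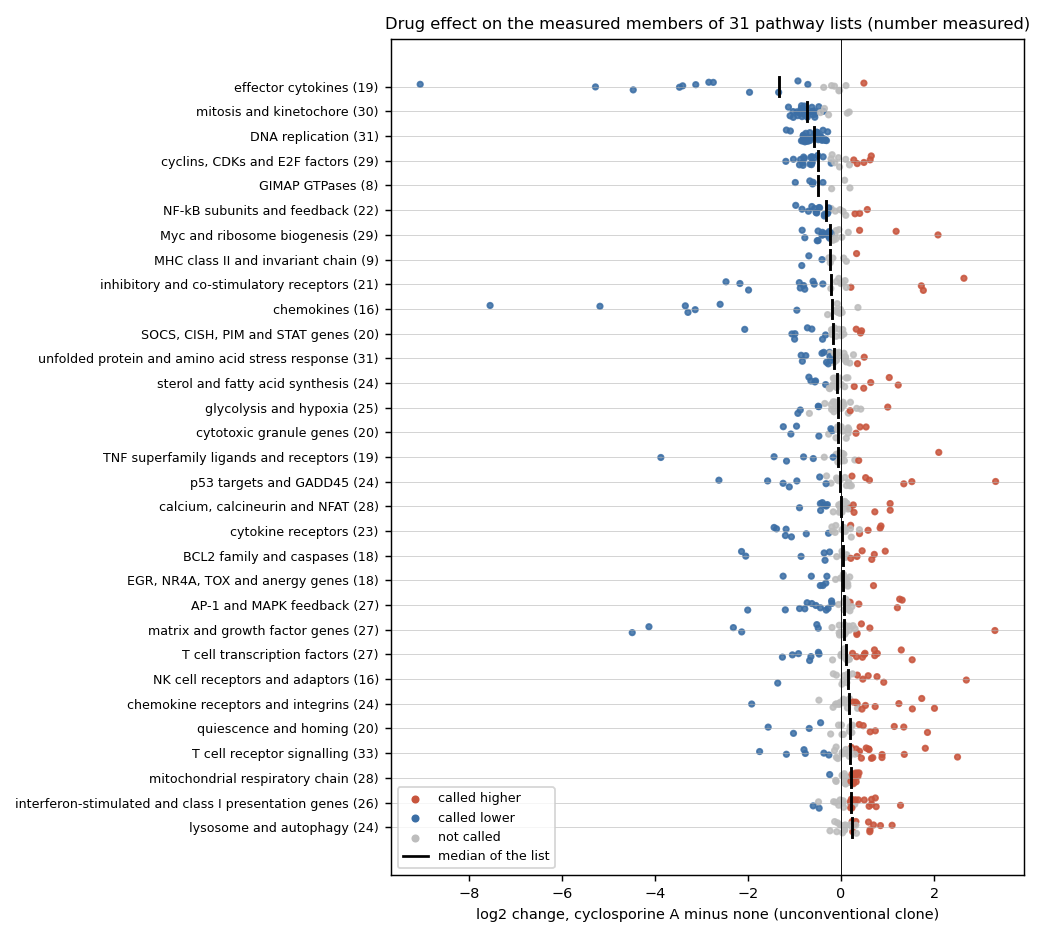
Log2 change with cyclosporine A (horizontal axis) of each measured member of 31 pathway lists (rows, with the number measured), coloured by call, with the median of each list as a bar. Effector cytokines, mitosis and DNA replication lie furthest to the left, at medians of -1.34, -0.73 and -0.58, and lysosome genes furthest to the right, at 0.23.

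**Figure D4:**
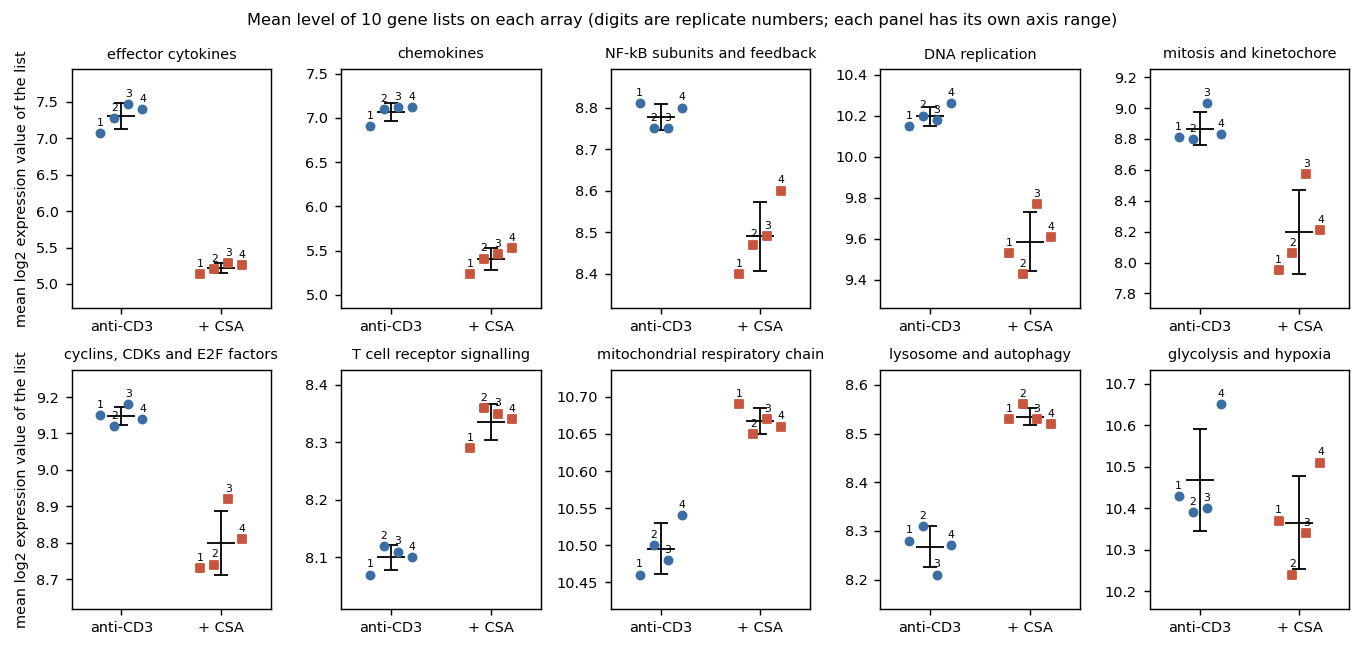
Mean log2 expression value (vertical axis, with a range of its own in each panel) over the members of 10 lists on each array, with the mean and SD of 4 arrays per group and digits for replicate numbers. The drug arrays of the mitosis list spread from 7.95 to 8.57, with replicate 3 the highest, and the cytokine list shows a gap between groups that is wide against the spread of either.

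The effect of the drug was then set against its effect in the conventional clone, by a test of the difference of both effects. That difference was called for 3247 of 19938 genes (16.3%), and the drug effect was the higher one in the unconventional clone for 1696 (8.51%) and the lower one for 1551 (7.78%). Of the 213 falls of 2-fold or more in the unconventional clone, the fall was called further there for 92 and smaller for 50, and 7 were called higher in the conventional clone. Of the 245 rises, 114 were further and 39 smaller, and 5 were called lower in the conventional clone. These genes were picked by the size of their change in the unconventional clone, which favours the first of each pair of counts.

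Several falls were seen in the unconventional clone alone or nearly so. Tm4sf1 changed by -4.14 here and by 0.03 in the conventional clone, a difference of -4.16 (SE 0.20, adjusted p = 5.3e-11). For Il17a the pair was -3.47 and -0.16 (difference -3.32, SE 0.17), for Il3 -3.40 and -0.38 (difference -3.03, SE 0.38), and for the keratin gene Krt23 -3.46 and -0.40 (difference -3.07, SE 0.18). The cystatin genes Csta3 and Gm5486, which are close copies of each other, changed by -1.14 and -2.41 here and by 1.79 and 0.42 there. A gene that is at background in the other clone before the drug has no room to fall there. In the conventional clone without the drug, Il17a stood at 5.38, just over the background level, and Tm4sf1, Il3 and Krt23 lay below it, at 4.92, 4.08 and 4.83.

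Rises that were larger in the unconventional clone were led by Mest, at background in the conventional clone, with a change of 3.34 against 0.08 (difference 3.26, SE 0.18, adjusted p = 2.5e-10). Xylt1, which starts the sugar chains of proteoglycans, rose here by 1.76 and changed by -1.32 in the conventional clone, a difference of 3.08. Padi2 and Cdkn2b rose by 2.70 and 2.46 against 0.19 and 0.00, and Rasgrp3 by 2.50 against -0.09. In the conventional clone without the drug, Padi2 (5.33) and Rasgrp3 (3.77) were at background. In the receptors, Cd200 changed by -2.47 against 0.26 and Cd44 by 1.73 against -0.48, both with a called difference. Cd200 was at background in the conventional clone (3.71). Ahr and Prdm1 rose here and changed by -0.24 and -0.52 in the conventional clone, with differences of 1.77 and 1.30.

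Other large effects of the conventional clone were small or not called here. Pfpl, a perforin-like gene, changed by 5.54 in the conventional clone and by 0.16 here (difference -5.38, SE 0.16). The steroid enzyme Hsd11b1 and the phosphatase Ubash3b changed by 3.22 and 3.18 there and by -0.12 and -0.14 here, both from background, and the oxidative stress gene Osgin1 by 3.45 there and 0.56 here. Acpp, a phosphatase gene, fell by less here (difference 3.31), from 10.44 to 9.72. Called differences of Ccl9 (3.83), Lum (3.58), Ambn (3.34) and AI504432 (3.18) are limited by the background level. Ccl9 and Ambn were at background here before the drug, and Lum and AI504432 started low, at 6.14 and 5.82, and ended at background in both clones. The ligand Tnfsf4 (OX40L; 3.38), the cadherin Fat1 (3.17) and the interferon-inducible Ifi205 (3.0), which has close copies, were not called here, and the first 2 were at background here before the drug.

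By list, the difference was called for many cell cycle and sterol genes. Of 31 replication genes the difference was called higher, a smaller fall here, for 25, and of 30 mitosis genes for 22, against 8.51% of all genes. The medians of these lists were -0.58 and -0.73 here. The helicase subunit Mcm7 changed by -0.52 here and -2.93 there, and Ccna2 by -0.82 and -3.51. The difference was called lower for 17 of 24 sterol and fatty acid genes, against 7.78% of all genes, with medians of -0.08 here and 0.73 in the conventional clone. Lss, which closes the sterol rings, changed by -0.09 here and 1.22 there. For 17 of 31 stress response genes it was lower too, with Trib3 at -0.15 here and 1.58 there.

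Among the cytokines the order went both ways. Ifng fell further here (-1.85, SE 0.16), as did Ccl3 (-1.29), Ccl4 (-2.38) and Igf1 (-1.21), while Il10 (1.84) and Lta (1.21) fell less. Il24, Olfm4 and Akr1c18 ended at background in both clones, so their differences (-0.34, not called, 2.22 and -1.25) follow their levels before the drug and say little about the size of either fall. Ccl5 was not called here and changed by -2.35 in the conventional clone, a called difference of 2.71. Prf1 changed by -0.96 here and 0.15 there, with a called difference of -1.11, and Gzmb by -0.11 and -0.61, with one of 0.50.

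**Figure D5:**
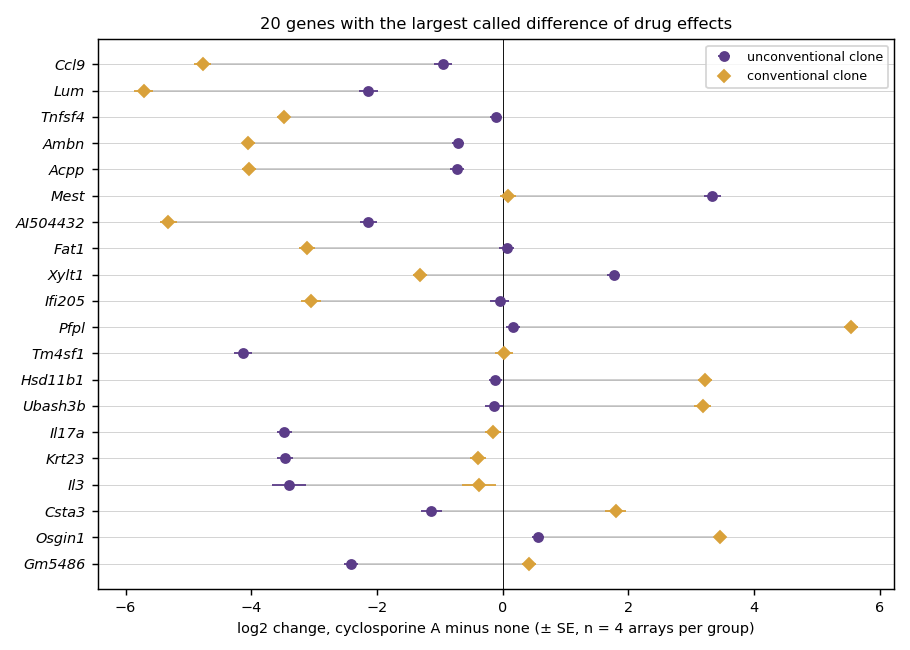
Log2 change with cyclosporine A (horizontal axis, with the SE of the model, 4 arrays per group) in the unconventional clone (circles) and the conventional clone (diamonds) for the 10 genes with the largest positive and the 10 with the largest negative called difference. Mest and Xylt1 rise in the unconventional clone, Tm4sf1, Il17a, Krt23 and Il3 fall there, and Pfpl changes by 0.16 in the unconventional and 5.54 in the conventional clone.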

How the data were processed

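Total RNA of activated CD8 T cell clones was hybridised to whole-transcript mouse arrays, 16 arrays in 4 groups of 4. The authors deposited log2 expression values for 28853 probe sets. RMA, GCOS and Partek 6.2 are named in the submitters' processing notes, without order, and neither a genome build nor an annotation is stated there. The number of arrays limits the precision.

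Of the probe sets, 21789 had 1 gene symbol, 1621 several and 5443 none in the platform annotation used here, and 99.6% of the first kind matched RefSeq's gene table by Entrez ID. The brightest probe set over all 16 arrays stood for each of 19938 genes, of which 999 had several. A mean per group was fitted with limma 3.58.1 (R 4.3.3), with eBayes moderation and 12 residual degrees of freedom, and p-values were adjusted over all genes. The same fit tested the difference of drug effects between the clones. The fit was also run on simulated data with independent noise for each gene and array. That setting holds no structure shared between arrays, so it cannot show how the fit handles such structure.

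The genes compared and the lists were chosen with earlier results of these data known. The named genes are the 12 largest rises and falls among called genes whose arrays do not overlap, leaving out receptor and immunoglobulin segments, up to 4 list members with the largest change, the 10 largest differences each way, the reference genes and 18 fixed genes. Other list members are named as examples, chosen after their values were seen. Members of gene families with near-identical sequence are uncertain. The deviations of same-numbered replicates from their group means correlated weakly over genes (0.058 to 0.104), and the numbers were not taken to pair the samples. Some list means peaked on the same number in both groups, as mitosis on replicate 3 (9.03 and 8.57) and glycolysis on replicate 4 (10.65 and 10.51). Others did not, as DNA replication on replicate 4 (10.26) without and replicate 3 (9.77) with the drug. Pairing was otherwise examined only by a fit with a block for the replicate number.

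Alternatives were other normalizations, the other probe sets, a filter on dim genes, other moderation, only 8 arrays, a replicate block, a minimum fold of 1.2 and each array left out. Some genes of the lists were not analysed here.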

Additional observations from a re-analysis of the deposited data

Results flagged for a closer look

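Among 430 groups of 4 arrays, those of the genes named by the rule and of the list means, 27 (6.28%) held an array whose gap to the nearest other array took up most of the range of its group. Chance flags about 1 in 20 such groups. Anti-CD3 replicate 1 gave 11 of the 27 and drug replicate 1 gave 5. Anti-CD3 replicate 1 read low for Tnf (9.55), Nkg7 (12.09), Irf4 (11.35), Igf1 (9.77), Ctsw (9.30), Hmgcs1 (9.71), the chemokine mean (6.91) and the GIMAP mean (6.19), and high for Ahr (9.06), Klrd1 (8.39) and the calcium and NFAT mean (8.29). Drug replicate 1 read low for Bcl3 (6.86), Ctsw (10.08), Gm5486 (5.34) and Il4ra (8.95), and high for Orai2 (7.67). Anti-CD3 replicate 2 read high for Mx1 (4.19) and low for Tnfaip3 (9.01), replicate 3 high for the mitosis mean (9.03) and low for the matrix and growth factor mean (5.90), and replicate 4 high for Pdzk1ip1 (9.53) and the glycolysis mean (10.65). Drug replicate 2 read high for Grap2 (8.23) and low for Orc1 (6.73), drug replicate 3 high for Ctsd (12.58), and drug replicate 4 low for AI504432 (3.47) and high for the mean of inhibitory and co-stimulatory receptors (7.18).

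The effect of the drug differed between the clones, by the test of the difference itself in limma, for 105 of the 175 genes named by the rule. Values are the log2 effect in the unconventional clone minus that in the conventional clone. Genes that fell in both clones and fell further in the unconventional one were Krt23 (-3.07), Ifng (-1.85), Tnfrsf11b (-1.80), Bcl2 (-1.59), Cxcl2 (-1.35), Ccl3 (-1.29), Akr1c18 (-1.25), Igf1 (-1.21), Cd8a (-1.17), Cish (-0.83), Nkg7 (-0.77), Gadd45a (-0.73), Mthfd2 (-0.55), Gimap5 (-0.54), Il21r (-0.50) and Cflar (-0.42). Genes that fell in both and fell less in the unconventional clone were Ccl9 (3.83), Lum (3.58), Ambn (3.34), Acpp (3.31), AI504432 (3.18), Ccne2 (2.67), Olfm4 (2.22), Ttk (2.10), Ctla4 (2.02), Il10 (1.84), Cdk1 (1.83), Ccr7 (1.53), Ndrg1 (1.32), Cdc45 (1.31), Ccr4 (1.29), Mcm10 (1.15), Atf3 (0.93), E2f8 (0.92), Bcl2l1 (0.83), Melk (0.81), Orc1 (0.79), Myc (0.78), Tnfaip3 (0.74), Pim1 (0.68), Hif1a (0.55), Rrm2 (0.55) and Tigit (0.38). Genes that rose in both and rose further in the unconventional clone were Klhl30 (2.73), Trp53inp1 (1.93), Vipr2 (1.79), Col6a3 (1.52), Anxa1 (1.35), Btg2 (1.29), Mxd4 (1.29), Ccr1 (1.13), Pik3ip1 (0.92), Tob1 (0.83), Klrd1 (0.82), Spred2 (0.65) and Casp9 (0.55). Genes that rose in both and rose less there were Osgin1 (-2.89), Acss2 (-2.0), Arhgap42 (-1.59), Bcl6 (-1.0), Klrg1 (-0.94), Sla2 (-0.82), Dusp1 (-0.70), Itpr3 (-0.60), Fosb (-0.52), Ctsd (-0.50) and Hmgcs1 (-0.44). Called falls in the unconventional clone that were not called in the conventional clone were in Tm4sf1 (-4.16), Il17a (-3.32), Il3 (-3.03), Cd200 (-2.74), Gadd45g (-2.30), Tnfrsf18 (-1.59), Il18r1 (-1.45), Prf1 (-1.11), H2-Ab1 (-1.01), Klra3 (-0.96), Slc7a5 (-0.77) and Egr2 (-0.56). Called rises of that kind were in Mest (3.26), Rasgrp3 (2.59), Padi2 (2.50), Cdkn2b (2.46), Ahr (1.77), Itgb7 (1.23), Irgm1 (1.17), Atg7 (0.85), Rnf128 (0.67), Npc2 (0.62) and Uqcrc1 (0.41). Genes called in opposite directions, lower in the unconventional and higher in the conventional clone, were Csta3 (-2.93), Gm5486 (-2.84) and Sqle (-1.02). The opposite pair of calls, higher in the unconventional and lower in the conventional clone, was found for Xylt1 (3.08), Gusb (1.28), Tapbp (1.19) and Gbp3 (1.13). Genes called in the conventional clone alone, higher there, were Pfpl (-5.38), Hsd11b1 (-3.34) and Ubash3b (-3.32). Those called lower in the conventional clone alone were Tnfsf4 (3.38), Fat1 (3.17), Ifi205 (3.0), Gzmb (0.50) and Hprt (0.45). The background level limits some of these values. Lum, AI504432, Olfm4 and Akr1c18 ended at background in both clones. Ccl9, Ambn, Tnfsf4, Fat1, Hsd11b1, Ubash3b, Pfpl, Rasgrp3, Vipr2, Bcl6, Spred2 and Klra3 started there in the unconventional clone. Il3, Krt23, Tm4sf1, Cd200, Il18r1, H2-Ab1, Csta3, Padi2 and Mest started there in the conventional clone, as did Pfpl, Hsd11b1, Rasgrp3, Vipr2 and Klra3. Tnfrsf11b and Cxcl2 ended there in the conventional clone, at 5.06 and 4.72, as did Acpp, Orc1 and Ifi205. The falls of these genes in that clone are lower limits.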

How the results depend on the processing

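The 6 counts of called genes kept within 1.5 times of their values under every alternative except limma's treat test against a change of 1.2-fold. That test called 949 genes higher and 883 lower, and the difference higher for 645 and lower for 601. Leaving out each array in turn gave 2229 to 2415 genes higher and 2127 to 2515 lower, 235 to 256 higher and 201 to 235 lower by at least 2-fold, and a difference higher for 1500 to 1724 and lower for 1377 to 1662. With the replicate number within each clone as a block, 2501 genes were higher and 2423 lower, so the block moved these counts little. Under it 7 glycolysis genes fell in place of 4 and 4 rose in place of 2. Under the block Bnip3 (adjusted p = 0.0005726) and Ccl5 (0.02588) were called. Median centring moved the median of all genes from 0.017 to -0.038, lowered the rises of the respiratory chain from 14 to 6, of the cyclins from 5 to 3, of the calcium genes from 6 to 3 and of the reference genes from 3 to 1. Among brighter genes alone 3 matrix genes rose in place of 5. With treat, 15 replication, 16 mitosis and 5 NF-kB genes fell and 0 respiratory chain genes rose. Of 287 named genes, the call of the drug effect changed in some setting for 55, or 17 without treat, and that of the difference for 76, or 44. Of 80 list counts, 50 changed by more than 1.5 times, or to or from 0, in some setting, treat included. Of 40 list medians, 30 moved in some setting by at least the SD of the list's array means within a group. No call of a named gene reversed, and main calls that were called again kept their direction in each setting. Some small list medians did change sign. Among brighter genes alone the median of AP-1 and MAP kinase feedback genes went from 0.06 to -0.13. That of cytokine receptors went from 0.02 to -0.06. The order of 2-fold rises and falls turned with median centring, as given above.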
